A study of Rattus norvegicus with 8 samples.

Results

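The genes described here activate fatty acids, carry them and break them down. They were taken by gene symbol, from the families of fatty acid transport proteins (Slc27a), fatty acid binding proteins (Fabp), acyl-CoA synthetases (Acsl, Acsm, Acsf, Acss, Acsbg), carnitine palmitoyltransferases (Cpt), acyl-CoA dehydrogenases and oxidases (Acad, Acox), hydratases, isomerases and thiolases (Ech, Eci, Hadh, Acaa), the reductase Decr1, electron transfer flavoprotein (Etf) and acyl-CoA thioesterases (Acot). Of the 14506 genes of the arrays 64 met this rule, each read by the brightest probe set that pairs with that gene alone. A further 5 probe sets that hold a symbol of these families pair with several genes and were left out. The cells were primary ventricular heart muscle cells of newborn rats, transfected by lipid reagent with 0.4 µM of a precursor of the microRNA miR-222 (4 arrays) or with a scrambled control precursor (4 arrays), and collected after 48 h. All arrays share the transfection reagent. The scrambled RNA is itself a small RNA with its own sequence, and a difference between groups can come from either RNA. The labels do not tie the arrays to separate cultures, the 4 arrays a group limit the precision, and the p-values speak only of the variation among these samples, part or all of which may be technical.

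A fatty acid enters a heart muscle cell with the help of transport proteins, is bound in the cytosol by a binding protein and is joined to coenzyme A by a synthetase. The carnitine palmitoyltransferases then pass the long-chain acyl group into the mitochondrion, where each round of beta-oxidation runs through a dehydrogenase, a hydratase, a further dehydrogenase and a thiolase, and the electrons of the acyl-CoA dehydrogenases reach the respiratory chain through electron transfer flavoprotein. Peroxisomes hold a parallel pathway for very long and branched chains. The newborn heart turns from glucose and lactate towards fatty acids as its main fuel, and cultured newborn cells are known to keep part of the earlier state.

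The microRNA that was added is shown here with its relative miR-221, because both carry the same seed, the stretch that pairs with target messages. Capitals mark the seed, bases 2 to 8 from the 5′ end. The sequences are those of RefSeq for the rat, on the plus strand of the X chromosome of build GRCr8 at chrX:6022682-6022702 for miR-222 and chrX:6023246-6023268 for miR-221. The labels do not spell out the transfected precursor's bases, and no transcript sequences were searched for seed matches.
rno-miR-222-3p: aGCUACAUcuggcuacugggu
rno-miR-221-3p: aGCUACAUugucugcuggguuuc

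The deposited values are intensities, read here as log2, with array medians of 202 to 219 before the logarithm. As a check of the transfection, the miR-222 target Hipk2 was 2.34-fold lower with miR-222 (log2 difference -1.22, standard error (SE) 0.07, adjusted p = 5.14e-05). All 13 listed markers of cardiomyocytes were above the array median on at least 1 array, and their mean level was 13.08 to 13.11 log2 units in control arrays and 12.94 to 12.99 in miR-222 arrays (1 higher, 3 lower). Markers of the other cells that such cultures can hold were lower with miR-222 in 5 of 12 fibroblast genes, 3 of 8 of smooth muscle and pericytes and 2 of 9 of endothelium, and higher in none of these. Over all genes 13.0% were lower by the same rule. The mean levels of these lists did not overlap between groups. They were 9.48 to 9.70 against 9.17 to 9.36 log2 units for fibroblasts and 10.58 to 10.60 against 10.23 to 10.34 for smooth muscle. Those of endothelium were 7.93 to 8.01 against 7.69 to 7.79. The cardiomyocyte means did not overlap either. Of the 9 endothelial markers 5 were below the array median on every array, and Kdr (-1.51) fell most. Pecam1 (0.04) and Tie1 (0.04) of endothelium, Myh11 (0.16) of smooth muscle and Tcf21 (0.11) of fibroblasts went the other way and did not pass. Of 12 macrophage markers 11 were below the array median on every array, and so were 6 of 8 of adipocytes and all 5 of red cells; among these dim markers C1qa of macrophages (0.26, adjusted p = 0.0471) and Slc4a1 of red cells (0.39, adjusted p = 0.00956) were higher with miR-222 and Ahsp of red cells (-0.64, adjusted p = 0.00295) was lower. No marker of adipocytes, Schwann cells or epicardium passed. The part of these shifts in the results below was not tested, and fewer cells of a type cannot be told apart from less RNA per cell. Among the 64 fatty acid genes, miR-222 replicate 3 was the highest or the lowest of its group in 45, against 23 to 32 for the other miR-222 arrays, and so was control replicate 4 in 45, against 25 to 31.

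With miR-222, fatty acid genes moved in both directions. At an adjusted p under 0.05 in the fit across all probe sets, 14 of the 64 genes rose, 10 fell and 40 did not pass. Over all genes 24.7% passed (18.9% of all probe sets), 11.7% higher and 13.0% lower, against 37.5% of the fatty acid genes, 21.9% higher and 15.6% lower. Brightness matters for this reading: of the 46 fatty acid genes that were not below the array median on every array 23 passed, 14 higher and 9 lower, where 36.2% of all such genes did (16.8% higher and 19.4% lower), and of the 18 dimmer ones 1 passed, where the share of all such genes was 4.69%. The group ranges did not overlap in 34 of the 64 (53.1%), among them all 24 that passed, against 33.3% of all genes. Among all brighter genes the share was 48.4%, but the 53.1% also counts the 18 dimmer fatty acid genes. Of those only Fabp1 had separate groups, so the share among the brighter fatty acid genes was above 53.1%. In 22 of the 34 the miR-222 arrays were higher (16.4% of all genes) and in 12 lower (17.0%). The median log2 difference was 0.06, beside 0.01 over all genes. The sizes were modest, with a median of 0.26 log2 units over the 24 and a range of 0.14 to 0.84.

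The counts depended on single arrays and on the scaling. Without a single control array the 14 rises became 10, 9, 9 and 8 (control replicates 1 to 4 in turn) and the 10 falls 4, 4, 5 and 7. These are 21.9%, 20.3%, 21.9% and 23.4% of the 64, where 18.5%, 18.9%, 19.6% and 20.4% of all genes passed in the same fits. Without a single miR-222 array they became 10, 15, 11 and 11 rises and 6, 7, 9 and 6 falls (replicates 1 to 4 in turn), or 25.0%, 34.4%, 31.2% and 26.6% of the 64 against 20.4%, 23.5%, 21.9% and 20.9% of all genes. With the median of every array set to the same value 7 rose and 8 fell, 23.4% of the 64 against 21.1% of all genes, so the share of fatty acid genes that passed lay close to that of all genes there. The calls of 11 genes remained under all the alternatives run: Acss3, Echdc2, Acsl4, Acsl1, Acsf2, Acad9 and Acss2, which rose, and Acsl6, Cpt1a, Acads and Eci1, which fell.

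**Figure D1:**
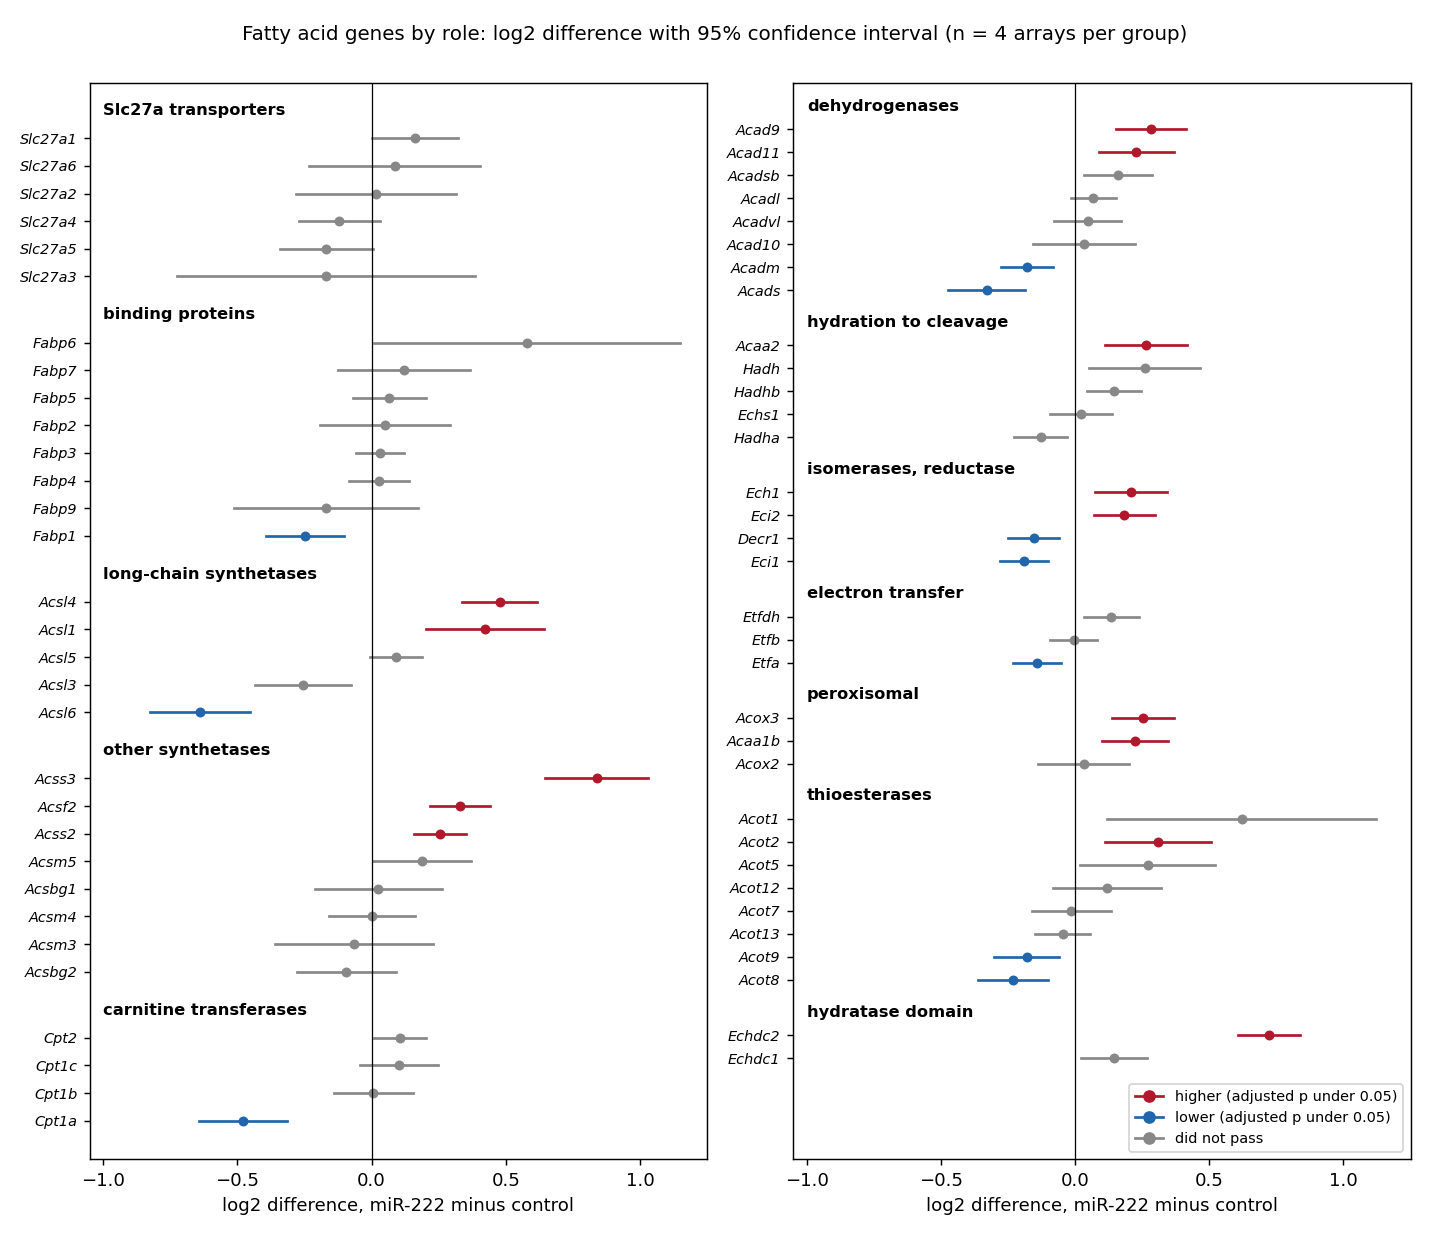
Log2 difference (miR-222 minus control, x axis) of each of the 64 fatty acid genes (rows), grouped by role, with the 95% confidence interval of the fit; red marks genes that were higher, blue genes that were lower and grey genes that did not pass. The 14 red and 10 blue genes are spread over most roles, and no Slc27a transporter passed.

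Few genes of the proteins that bring fatty acids in and bind them passed, but many of these genes were dim. None of the 6 Slc27a transport genes passed. Of these 3, Slc27a2, Slc27a5 and Slc27a6, were below the array median on every array, where 4.69% of all such genes passed. Slc27a1, the muscle transporter FATP1, differed by 0.16 log2 units with separate groups (adjusted p = 0.162), and Slc27a4 by -0.12 (95% confidence interval -0.27 to 0.03, which like all intervals here is that of the gene alone). The others lay between -0.17 (Slc27a3) and 0.09 (Slc27a6), with Slc27a5 at -0.17 and Slc27a2 at 0.02. Of 8 binding protein genes 1 passed, and 6 of the 8 were below the array median on every array. The heart form Fabp3 measured 12.82, 12.83, 12.86 and 12.84 log2 units in the 4 control arrays (replicates 1 to 4 in turn, here and below) and 12.82, 12.86, 12.92 and 12.86 in the 4 miR-222 arrays. These ranges overlap, and the difference of 0.03 had an interval of -0.06 to 0.12. Fabp5 differed by 0.07 and the endothelial and fat cell form Fabp4, which was dim, by 0.03, neither past the threshold. Fabp2, Fabp7 and Fabp9, below the array median on every array, differed by 0.05, 0.12 and -0.17, and the ileal form Fabp6, also dim, by 0.58 with a wide SE of 0.25 (adjusted p = 0.155). The liver form Fabp1 (probe set 10856254) was the gene that passed, at 7.01, 7.03, 6.99 and 6.92 in control and 6.67, 6.89, 6.64 and 6.76 in miR-222 arrays. It fell by 0.25 (SE 0.06, adjusted p = 0.0290), but its probe set was below the array median on every array and no detection calls were used here. Leaving out any of control replicates 1 to 3 or miR-222 replicates 1, 3 and 4 ended the call (adjusted p up to 0.0781), as did a mean-variance trend.

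The long-chain acyl-CoA synthetases, which activate fatty acids for oxidation, storage or membrane lipid, separated by isoform. Acsl4 (probe set 10932795), which prefers arachidonic acid, had 10.30, 10.19, 10.26 and 10.17 log2 units in control arrays and 10.70, 10.84, 10.59 and 10.69 in miR-222 arrays. All miR-222 arrays were above all control arrays, and the gene rose by 0.48 (SE 0.06, adjusted p = 0.00130), which is 1.39-fold. Acsl1 (probe set 10791677), the main isoform of heart muscle for oxidation, had 11.26, 11.25, 11.17 and 11.17 in control and 11.60, 11.50, 11.93 and 11.52 in miR-222 arrays. It rose by 0.42 (SE 0.10, adjusted p = 0.0171), or 0.33 without miR-222 replicate 3, its highest array. Acsl6 (probe set 10733582), known best from brain and muscle, went the other way, from 8.83, 8.94, 8.84 and 8.77 in control to 8.10, 8.20, 8.43 and 8.10 in miR-222 arrays. This was the largest fall among the 64 genes, 0.64 log2 units (SE 0.08, adjusted p = 0.00121), or 1.56-fold lower. Acsl3, which serves lipid droplets, differed by -0.26 with separate groups but did not pass (adjusted p = 0.0561). It passed under 7 of the alternatives, among them equal array medians (adjusted p = 0.0445) and without miR-222 replicate 3, its lowest array (adjusted p = 0.0289). Acsl5 differed by 0.09 and did not pass. The ratio of Acsl1 to Acsl6 within each array was 2.09-fold higher with miR-222 and that of Acsl4 to Acsl3 1.66-fold. In neither ratio did the groups overlap, but both pairs were chosen after their values were seen.

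Among the other synthetases 3 of 8 rose and none fell, where 11.7% of all genes were higher and 13.0% lower. The 3 were among the brighter genes, of which 16.8% were higher over all genes. The other 5 were dim, and 4.69% of all such genes passed. Acss3 (probe set 10902112), a mitochondrial synthetase of short chains such as propionate, showed the largest rise among the 64 genes. It had 8.65, 8.52, 8.74 and 8.56 log2 units in control and 9.39, 9.41, 9.67 and 9.35 in miR-222 arrays, a rise of 0.84 (SE 0.08, adjusted p = 0.000396) or 1.79-fold. Acsf2 (probe set 10746399), a mitochondrial synthetase of medium chains, had 11.18, 11.19, 11.19 and 11.15 in control and 11.51, 11.44, 11.62 and 11.47 in miR-222 arrays. It rose by 0.33 (SE 0.05, adjusted p = 0.00263), with every miR-222 array above every control array. Acss2, the enzyme that makes acetyl-CoA from acetate in the cytosol and nucleus, rose by 0.26 (SE 0.04, adjusted p = 0.00402). The remaining genes of this group, Acsm3, Acsm4, Acsm5, Acsbg1 and Acsbg2, were below the array median on every array, with differences from -0.09 (Acsbg2) to 0.19 (Acsm5), and did not pass.

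**Figure D2:**
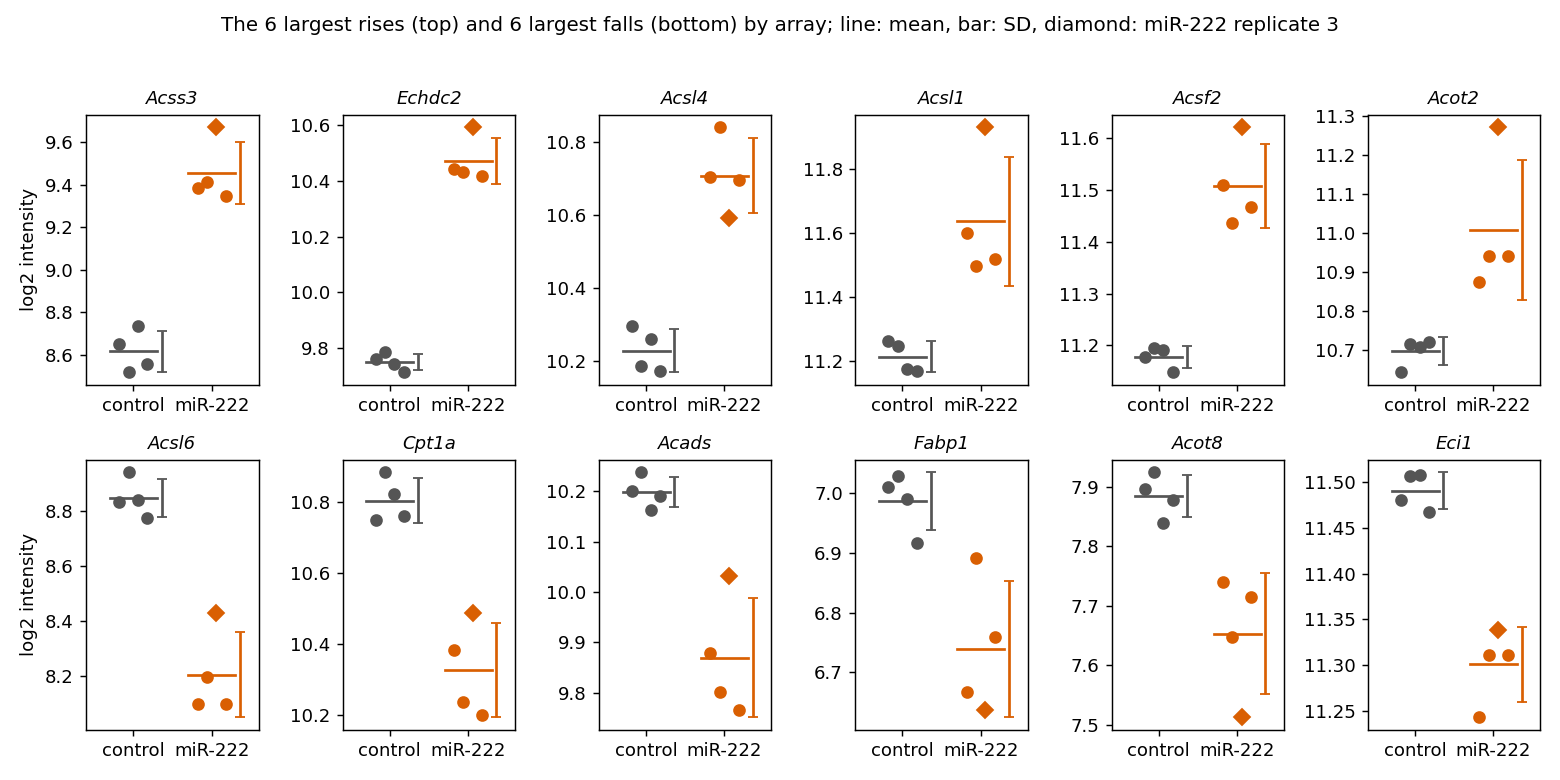
Log2 intensity (y axis) of each array in control and miR-222 cells for the 6 largest rises (top row) and the 6 largest falls (bottom row) among genes past the threshold, with the mean of 4 arrays as a line and the SD as a bar; each panel has its own scale, and a diamond marks miR-222 replicate 3. In every panel the groups are apart, and the diamond lies at the edge of its group.

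At the gate into mitochondria a single gene moved. Cpt1a (probe set 10712657), the isoform of liver and of the immature heart, had 10.75, 10.88, 10.82 and 10.76 log2 units in control arrays and 10.38, 10.23, 10.48 and 10.20 in miR-222 arrays. Every miR-222 array was below every control array, and the gene fell by 0.48 (SE 0.07, adjusted p = 0.00270), which is 1.39-fold lower. Cpt1b (probe set 10906302), the adult muscle isoform, had 11.87, 11.90, 11.84 and 11.88 in control and 11.85, 11.79, 12.06 and 11.81 in miR-222 arrays, with a difference of 0.01 and an interval of -0.14 to 0.15 that leaves out a fall as large as that of Cpt1a. Within arrays the ratio of Cpt1b to Cpt1a was 1.40-fold higher with miR-222 (0.48 on the log2 scale), without overlap between groups. This shift reflects the fall of Cpt1a, and the pair was chosen after its values were seen. Cpt2 of the inner membrane, whose groups were also apart, differed by 0.11 (adjusted p = 0.133), and the dim brain form Cpt1c by 0.10. Neither passed.

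The acyl-CoA dehydrogenases, which take the first step of each round and differ by chain length, moved in opposite directions. Acads (probe set 10759034), for short chains, had 10.20, 10.24, 10.16 and 10.19 log2 units in control and 9.88, 9.80, 10.03 and 9.76 in miR-222 arrays and fell by 0.33 (SE 0.06, adjusted p = 0.00794). Acadm, for medium chains, fell by 0.18 (SE 0.04, adjusted p = 0.0197), a call that ended when any of control replicates 1 to 3 was left out (adjusted p up to 0.0606). The enzymes for longer chains, Acadl and Acadvl, differed by 0.07 (interval -0.01 to 0.15) and 0.05 (-0.08 to 0.17) and did not pass. Acad9, which serves the assembly of respiratory complex I, rose by 0.28 (SE 0.06, adjusted p = 0.0101). Its miR-222 arrays lay close together, at 10.44, 10.46, 10.43 and 10.48, while its control arrays read 10.18, 10.26, 10.22 and 10.02. Acad11, a dehydrogenase found in peroxisomes, rose by 0.23 (SE 0.06, adjusted p = 0.0342), but the call ended with equal array medians (adjusted p = 0.0997), with quantile scaling, and when any of control replicates 1, 2 and 4 or miR-222 replicates 1 to 3 was left out (adjusted p up to 0.0890). Acadsb, of branched-chain amino acid breakdown, and Acad10 differed by 0.16 and 0.03 and did not pass.

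In the steps that follow, 1 of 5 genes passed, although the groups were apart in 4. None of the 5 was below the array median on every array. Of all such genes 36.2% passed and 48.4% had separate groups. Acaa2, the mitochondrial thiolase, had 11.83, 11.86, 11.81 and 11.86 log2 units in control and 12.08, 12.02, 12.30 and 12.02 in miR-222 arrays and rose by 0.26 (SE 0.07, adjusted p = 0.0270). The call was lost with equal array medians (adjusted p = 0.0614), without any single control array and without miR-222 replicate 1 (adjusted p up to 0.0709). Hadh, the dehydrogenase for shorter chains, differed by 0.26 (adjusted p = 0.0852), or 0.17 without miR-222 replicate 3, and the hydratase gene Echs1 by 0.02. Hadha and Hadhb encode the alpha and beta subunits of the mitochondrial trifunctional protein, which are made in equal number. Hadha (probe set 10883305) had 12.37, 12.41, 12.31 and 12.34 in control and 12.21, 12.21, 12.30 and 12.19 in miR-222 arrays, so the groups lay just apart, lower with miR-222. Hadhb (probe set 10889074) had 12.28, 12.30, 12.29 and 12.30 in control and 12.43, 12.39, 12.53 and 12.39 in miR-222 arrays, all higher with miR-222. The differences were -0.13 (adjusted p = 0.0761) and 0.14 (adjusted p = 0.0539), so neither gene passed. A further probe set of Hadha, 10883303, differed by -0.12 and did not pass. The log2 ratio of Hadhb to Hadha ran from -0.11 to -0.02 in control arrays and from 0.18 to 0.23 in miR-222 arrays, a shift of 0.27 (1.21-fold) whose range over the alternatives was 0.26 to 0.29. This pair and the others set against each other within arrays were chosen after their values were seen, 5 in all, and were not tested.

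The pair is shown with its start region because the genes lie head to head in GRCr8, Hadhb on the minus and Hadha on the plus strand. The RefSeq window of 250 bases before to 50 after the start of Hadhb is chr6:31907451-31907750, minus strand, and shares 200 bases with that of Hadha. Capitals mark a match to AAGGTCA, read on the opposite strand, near the end of the window. AAGGTCA is the extended half-site of nuclear receptors such as the estrogen-related receptors. The match lies within the 50 bases after the start of Hadhb, outside the 200 bases shared with the window of Hadha. Both strands were searched, and the motif was in 4.61% of 33469 promoter windows and in 5 of the 53 windows that matched one of the 64 genes (Acad11, Acot5, Acsm5, Hadhb and Slc27a2), of which Acad11 rose and the others did not pass. A longer motif was searched as well, a pair of AGGNCA copies with any 1 base between them, of the kind bound by PPAR and RXR. It was in 0.415% of all windows and in 1 of the 53, that of Fabp1, which fell. A match is a description of the letters and not of binding.
Hadhb start region: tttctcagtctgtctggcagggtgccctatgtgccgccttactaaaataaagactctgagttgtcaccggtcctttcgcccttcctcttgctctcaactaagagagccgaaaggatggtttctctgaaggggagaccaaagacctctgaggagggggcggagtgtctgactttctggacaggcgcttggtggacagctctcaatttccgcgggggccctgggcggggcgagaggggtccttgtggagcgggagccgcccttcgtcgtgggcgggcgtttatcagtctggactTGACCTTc

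**Figure D3:**
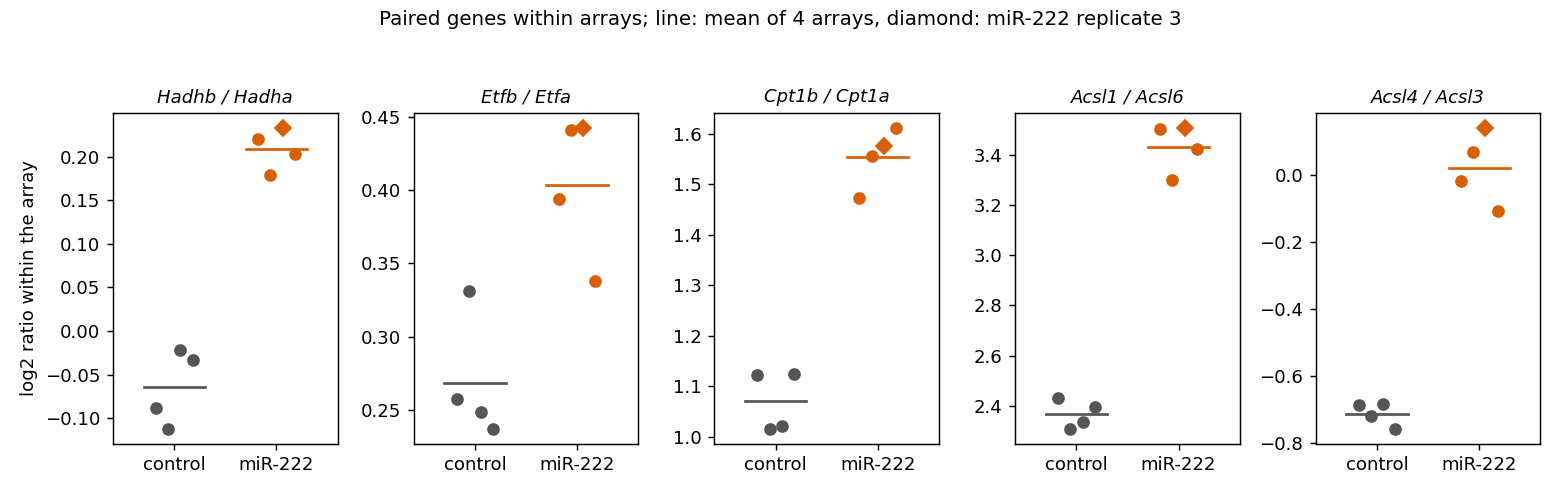
Log2 ratio of paired genes within each array (y axis, own scale in each panel) in control and miR-222 cells, with the mean of 4 arrays as a line and miR-222 replicate 3 as a diamond. In all 5 pairs every miR-222 array lies above every control array, with shifts from 0.14 for Etfb to Etfa up to 1.06 for Acsl1 to Acsl6.

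All 4 genes that handle the bonds of unsaturated chains passed, and they divided evenly. None of the 4 was below the array median on every array, and 36.2% of all such genes passed (16.8% higher and 19.4% lower). Eci1 (probe set 10732068), the mitochondrial enoyl-CoA isomerase, had 11.48, 11.51, 11.51 and 11.47 log2 units in control and 11.24, 11.31, 11.34 and 11.31 in miR-222 arrays and fell by 0.19 (SE 0.04, adjusted p = 0.0110). Decr1, the mitochondrial dienoyl-CoA reductase, fell by 0.16 (SE 0.04, adjusted p = 0.0328). Eci2, an isomerase of peroxisomes and mitochondria, rose by 0.18 (SE 0.05, adjusted p = 0.0360), and so did Ech1, a dienoyl-CoA isomerase of both organelles, by 0.21 (SE 0.06, adjusted p = 0.0407). With equal array medians the calls of Decr1 (adjusted p = 0.0564), Eci2 (0.123) and Ech1 (0.111) were lost. Leaving out 1 array ended the call of Decr1 for control replicates 1 to 3 and miR-222 replicates 1 and 4 (adjusted p up to 0.0974). The same held of Eci2 for control replicates 2 to 4 and miR-222 replicates 1, 3 and 4 (up to 0.0928), and of Ech1 for each control array and miR-222 replicates 2 and 4 (up to 0.0943).

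Of the genes that carry electrons from the dehydrogenases, Etfa, the alpha subunit of electron transfer flavoprotein, fell by 0.14 (SE 0.04, adjusted p = 0.0381). The control arrays lay at 12.13 to 12.22 log2 units and the miR-222 arrays at no more than 12.06. The groups were apart, but the call was lost without any single array (adjusted p up to 0.111), with equal array medians (0.0663) and with quantile scaling. Its partner Etfb differed by -0.01 (interval -0.09 to 0.08), and Etfdh, which passes the electrons on to ubiquinone, by 0.14 (adjusted p = 0.0734). Neither passed.

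The thioesterases, which release free fatty acids from coenzyme A, also moved both ways. Acot2 (probe set 10885851), a mitochondrial enzyme for long chains, had 10.64, 10.71, 10.71 and 10.72 log2 units in control and 10.87, 10.94, 11.27 and 10.94 in miR-222 arrays and rose by 0.31 (SE 0.09, adjusted p = 0.0390), or 0.22 without miR-222 replicate 3. The call was lost with equal array medians (0.0647), without any single control array and without miR-222 replicate 2 or 4 (adjusted p up to 0.0998). Its neighbours of like sequence, Acot1 and Acot5, which probes may not tell apart from it, differed by 0.62 (SE 0.22, adjusted p = 0.0904) and 0.27 and did not pass. Acot1 was uneven, with 7.30, 6.93, 8.03 and 7.55 in miR-222 arrays against 6.72, 6.74, 6.76 and 7.12 in control arrays. Acot8 (probe set 10851656), a peroxisomal enzyme, had 7.90, 7.92, 7.84 and 7.88 in control and 7.74, 7.65, 7.51 and 7.71 in miR-222 arrays and fell by 0.23 (SE 0.06, adjusted p = 0.0253), a call that ended when any of control replicates 1, 2 and 4 or miR-222 replicate 2 was left out (adjusted p up to 0.0711). Acot9, of mitochondria, fell by 0.18 (SE 0.05, adjusted p = 0.0481), a call lost without any single array (adjusted p up to 0.119), under both scalings and with array weights. Acot7, Acot12 and Acot13 differed by -0.01, 0.12 and -0.05 and did not pass.

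Echdc2 (probe set 10870762), a gene with an enoyl-CoA hydratase domain whose product lies in mitochondria, had the smallest adjusted p of the 64 genes (9.56e-05). It had 9.76, 9.78, 9.74 and 9.71 log2 units in control arrays and 10.44, 10.43, 10.59 and 10.42 in miR-222 arrays. The gap between the groups was wide against the spread within them, and the rise was 0.72 (SE 0.05), or 1.65-fold. Its relative Echdc1, which repairs ethylmalonyl-CoA, differed by 0.15 with separate groups and did not pass (adjusted p = 0.102).

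**Figure D4:**
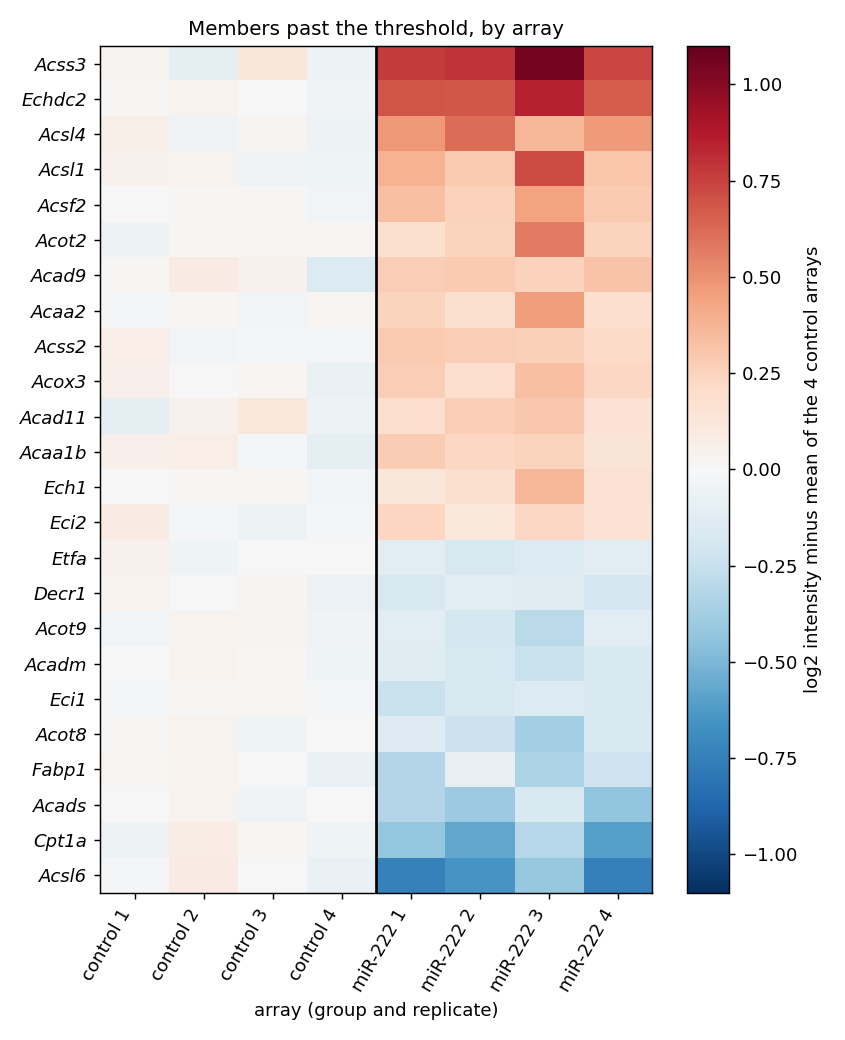
Log2 intensity minus the mean of the 4 control arrays (colour scale) for the 24 fatty acid genes past the threshold (rows, from the largest rise to the largest fall) in each of the 8 arrays (columns). The 14 upper genes are red and the 10 lower genes blue in all 4 miR-222 columns, and replicate 3 shows the deepest red for Acsl1 and Acot2.

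Of 8 peroxisomal genes among the 64, grouped with their values known, 5 were higher, 1 was lower and 2 did not pass. The 5 include Ech1 and Eci2, which also belong to mitochondria. The 2, Acox2 and Slc27a2, were dim. Over all genes 11.7% were higher (16.8% of the brighter ones). Acox3, an oxidase of branched chains, rose by 0.25 (SE 0.05, adjusted p = 0.00928), with 9.65 to 9.78 log2 units in control arrays and 9.91 to 10.06 in miR-222 arrays. Acaa1b, a peroxisomal thiolase, rose by 0.22 (SE 0.05, adjusted p = 0.0232), and Acox2, an oxidase of bile acid precursors that was below the array median on every array, differed by 0.03 and did not pass. Another probe set that pairs with Acaa1b and its relative Acaa1a was not used. The call of Acox3 was lost with equal array medians (adjusted p = 0.0515), and that of Acaa1b there (0.0868) and when any of control replicates 3 and 4 or miR-222 replicates 1 and 3 was left out (adjusted p up to 0.0641).

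A list of 62 other genes of fatty acid use, of which 54 were measured, was set beside them. Of these 15 rose, 6 fell and 33 did not pass (38.9% past the threshold, against 24.7% of all genes, with a median of 0.01). Most of this list is bright: 51 of the 54 were not below the array median on every array, and 21 of these passed (41.2%), against 36.2% of all such genes. Abcd2 counts among the 51 only through its miR-222 arrays. Among regulators the nuclear receptor gene Ppara, which drives many oxidation genes of the heart, rose by 0.50 (SE 0.09, adjusted p = 0.00530). Its relative Ppard rose by 0.27 (adjusted p = 0.0309), and the estrogen-related receptor gene Esrrb by 0.32 (adjusted p = 0.0499). The control arrays of Esrrb, at 7.74 to 7.93 log2 units, lay close to the array medians of 7.66 to 7.77. Its highest array was miR-222 replicate 3, at 8.43. The coactivator gene Ppargc1a and the related receptor genes Esrra and Esrrg differed by -0.09, 0.12 and -0.12 and did not pass. Acacb, which makes the malonyl-CoA that holds back carnitine palmitoyltransferase, rose by 0.32 (SE 0.04, adjusted p = 0.00126). Cd36, the main importer of fatty acids in heart muscle, differed by -0.10 (interval -0.18 to -0.01) and the carnitine carrier gene Slc25a20 by -0.05 (-0.24 to 0.15). Neither passed.

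Genes of fat storage and synthesis in that list moved both ways. Mgll, which breaks down monoglycerides, rose by 0.61 (SE 0.06, adjusted p = 0.000338), Dgat2, which makes triglyceride, by 0.70 (SE 0.09, adjusted p = 0.00126) and the desaturase gene Scd by 0.29 (SE 0.05, adjusted p = 0.00590). The fatty acid synthase gene Fasn fell by 0.33 (SE 0.07, adjusted p = 0.0122), while Acaca, Dgat1 and Gpam, of fatty acid and triglyceride synthesis, differed by -0.12, -0.01 and -0.04 and did not pass. Ivd, of leucine breakdown, rose by 0.28 (adjusted p = 0.00305). The mitochondrial carrier gene Ucp2 fell by 0.21 (adjusted p = 0.00622) and Pcca, a subunit of the carboxylase of propionyl-CoA, by 0.22 (adjusted p = 0.00709).

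Peroxisomal genes of that list included some of its largest rises. Ehhadh, the bifunctional enzyme of peroxisomal beta-oxidation, had 7.88, 7.80, 8.01 and 7.86 log2 units in control and 8.48, 8.39, 8.87 and 8.48 in miR-222 arrays and rose by 0.66 (SE 0.10, adjusted p = 0.00338). Hsd17b4, its counterpart for branched chains, rose by 0.36 (SE 0.05, adjusted p = 0.00150). The importers of acyl-CoA into peroxisomes Abcd2 and Abcd3 rose by 0.53 (adjusted p = 0.00751) and 0.32 (adjusted p = 0.00140), and Crot, which loads shortened chains on carnitine for export, by 0.49 (SE 0.06, adjusted p = 0.00100). Acbd5, which tethers peroxisomes to the endoplasmic reticulum, fell by 0.45 (SE 0.06, adjusted p = 0.00120). The peroxisomal genes of both lists were grouped with their values known, so the group has no test. Of its 17 genes 10 were higher, 2 lower and 5 did not pass, with a median of 0.21. Of the 17, 15 were not below the array median on every array, where 16.8% of all such genes were higher. Abcd2 is among these 15 only through its miR-222 arrays. Its control arrays, at 6.84 to 7.19 log2 units, were all below the lowest array median of 7.66. Of the 56 fatty acid genes outside this group 9 were higher and 9 lower (16.1% each), with a median of 0.05. Over all genes 11.7% were higher and 13.0% lower. The groups differ in brightness, since 16 of the 56 were below the array median on every array, against 2 of the 17. These 56 are of the 64 alone, and genes of the other list outside the group are not counted. With equal array medians 5 peroxisomal genes were higher, since Acox3, Acaa1b, Acad11, Ech1 and Eci2 no longer passed. Without control replicate 4 the count was 6 and without any other single array 7 or 8.

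**Figure D5:**
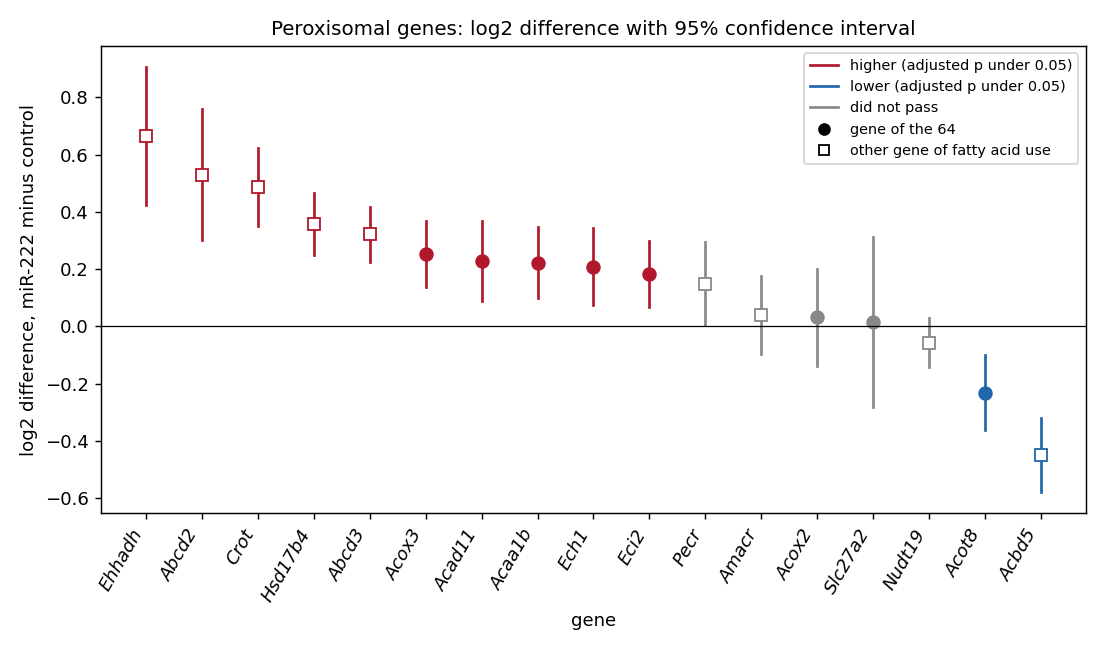
Log2 difference (miR-222 minus control, y axis) of 17 peroxisomal genes (x axis) with the 95% confidence interval; filled circles are genes of the 64, open squares other genes of fatty acid use, red genes that were higher, blue genes that were lower and grey genes that did not pass. The 10 red genes run from 0.66 for Ehhadh to 0.18 for Eci2. The blue genes Acot8 and Acbd5 lie below 0, and so does Nudt19 (-0.06), which did not pass.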

How the data were processed

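The deposited table holds 1 intensity for each of 29170 probe sets on each of 8 arrays, on a linear scale; the authors processed and scaled these intensities by a method not given in the sources used here, and no scanner files or detection calls were used. The series text names an Affymetrix rat array other than the one whose annotation (GEO's, for Rat Gene ST) pairs with the identifiers, and that annotation gave the gene names; all 64 symbols are current by gene identifier. Of its probe sets 15310 pair with 1 gene and 323 with several. Values were taken as log2 with no pseudocount, since none was 0 (212 were at 1 or below). All probe sets were fitted together with limma 3.58.1 (lmFit, eBayes) in R 4.3.3, miR-222 minus control, and 2-sided p-values were adjusted over all of them by Benjamini and Hochberg, threshold 0.05. Replicates are numbered in listing order, which pairs nothing. Members, lists and roles were chosen with earlier results of these data known. Named genes are all that passed among the 64, with each array's value for the 6 largest rises and falls, and the 14 smallest p of the other list that passed; further ones were added after their values were seen. On simulated data with these spreads, 200 probe sets of 29170 were changed, in 10 runs. The fit recovered 12.5% of changes of 0.25, 55.2% of 0.5 and 84.1% of 1 log2 unit, with 5.44% false calls. In the data themselves 5508 of 29170 probe sets passed, so these rates may not be those of the 64 genes. Figures were drawn with matplotlib 3.10.9.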

Additional observations from a re-analysis of the deposited data

Results flagged for a closer look

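In 11 of the 128 sets of 4 arrays (64 genes in 2 groups) a single array stood apart from the other 3 beyond Dixon's 95% limit, where chance gives about 1 in 20, or 6.4. In miR-222 replicate 3 it was the highest for Acadvl (11.16 log2 units against at most 11.01 in the other 3), Acot2 (11.27 against 10.87 to 10.94) and Echdc2 (10.59 against 10.42 to 10.44) and the lowest for Acot12 (6.93 against 7.06 to 7.08). In control replicate 4 it was the lowest for Acadl (12.41 against 12.46 to 12.47) and Echdc1 (9.32 against 9.47 to 9.48) and the highest for Acot1 (7.12 against 6.72 to 6.76). In control replicate 1 it was the lowest for Acot2 (10.64 against 10.71 to 10.72) and the highest for Acss2 (11.44 against 11.34 to 11.35). In control replicate 2 it was the highest for Cpt1c (7.58 against 7.42 to 7.44) and the lowest for Slc27a6 (6.00 against 6.29 to 6.32).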

How the results depend on the processing

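Of the 24 calls among the 64 genes 11 were kept under all 16 alternatives and 13 were lost under at least 1, 2 of these only when an array was left out; no called gene changed sign. With the median of every array set to the same value there were 7 rises and 8 falls, the median of the 64 was 0.032 and 5 peroxisomal genes were higher; without dim probe sets the median was 0.080. Leaving out each array in turn gave 8 to 15 rises, 4 to 9 falls, medians of 0.065 to 0.077, 12 to 16 rises and 4 to 5 falls in the other list, and 6 to 8 peroxisomal rises with 1 to 2 falls. The pseudocount of 16 gave 14 rises and 11 falls (39.1% of the 64 against 25.2% of all genes). Quantile scaling gave 15 and 8 (35.9% against 24.8%), and a mean-variance trend 21 and 11 (50% against 28.9%). Array weights gave 17 and 11 (43.8% against 26.9%), and adjustment over gene probe sets alone 16 and 12 (43.8% against 29.1%). Leaving out dim probe sets gave 19 and 11 of the 46 genes that stayed (65.2% against 42.7%). Leaving out an array also lowers the power of the fit, and the other causes were not tested. The equal-median scaling moved the median of all genes from 0.01 to -0.01. No paired analysis was possible because the labels carry no replicate numbers. Probe sets near background limit 18 of the 64 genes.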
